A study of Sus scrofa with 6 samples.

Results

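Uterine tissue of late pregnant sows was compared with uterine tissue of non-pregnant sows, gene by gene. The 2 arrays compared, of 6 in the series, are the late pregnant and the non-pregnant array of the tissue labelled myometrium, the smooth muscle wall of the uterus. They were picked by their labels, and the values compared are array signals of the authors' MAS5 summary. The series also holds an early pregnant array of this tissue and 3 ovary arrays, whose values are given for context. Its design text counts 9 pigs, with 3 sows non-pregnant, 3 in early and 3 in late pregnancy. It does not say whether an array carried RNA of 1 animal or of several combined. The sources used here do not give breed, parity, day of gestation or day of the cycle. No treatment, transgene or strain is named, and tissue was rinsed in buffered saline and frozen before RNA extraction. Each stage has 1 array of this tissue, so no difference below has a replicate check or a p-value, and "higher" and "lower" describe these arrays. All values come from bulk tissue, in which fewer cells of a type and less RNA per cell cannot be told apart.

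In the pig the placenta does not invade the uterus: the trophoblast, the outer epithelium of the foetal membranes, lies against the uterine epithelium throughout gestation and folds with it. The foetus is fed across this double epithelium by transporters and by histotroph, the secretion of the uterine glands, whose best known proteins are uteroferrin, the uteroferrin-associated proteins, retinol-binding protein and osteopontin. Progesterone drives that secretion, and its receptor is lost from the uterine epithelium under continued progesterone. The muscle of the uterus is held quiet until term, when oxytocin and prostaglandin F receptors and connexin channels increase.

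Signals below 81.7 were set to that value, the floor, which is the 40th percentile of the signals of the whole series. Where the dimmer of the 2 signals was at the floor, the ratio is written as "at least". Of 16013 probe sets that exceeded the floor on 1 or both arrays, 1744 (10.9%) were 2-fold or more higher on the late pregnant array and 2020 (12.6%) lower. At 4-fold the counts were 548 higher and 380 lower. Of 5695 named genes, each represented by its brightest probe set, 646 (11.3%) were 2-fold or more higher and 752 (13.2%) lower. These shares are the background against which each gene group below is read. The median log2 ratio over these genes was -0.16, and -0.06 when the arrays were centred on their medians. Where a gene past 2-fold had a further probe set above the floor, that probe set had the same sign for 184 of 203 higher genes and for 148 of 162 lower genes, and it passed 2-fold for 95 and 86. The GAPDH signal ratio between 3' and 5' probe sets, a measure of RNA quality, was 1.52 on the non-pregnant and 1.53 on the late pregnant array, and that of actin was 3.49 and 2.76. The poly-A controls added to the RNA read 0.42 higher on the late pregnant array (median log2 ratio), and the hybridisation controls -0.19. A gene's signal is not comparable with that of another gene, because probe sets differ in affinity.

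**Figure D1:**
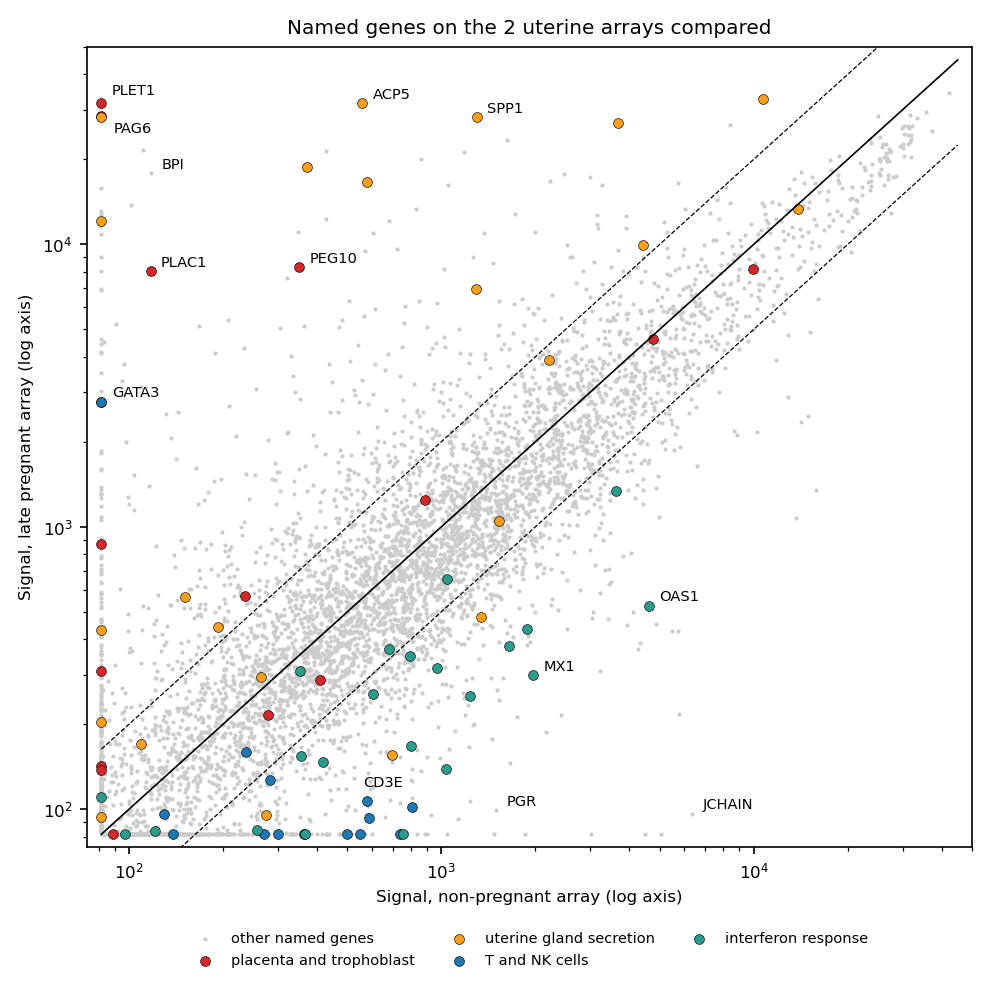
Signal of each named gene on the non-pregnant array (horizontal) and the late pregnant array (vertical) of the tissue labelled myometrium, both on log axes with signals raised to the floor of 81.7; each point is 1 gene and coloured points belong to 4 gene lists. PLET1 at 31638 and PAG6 at 28500.2 lie in the upper left corner, and 13 of 14 measured genes of T and NK cells and 21 of 22 of the interferon response lie below the line of equal signal (dashed lines, 2-fold).

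The label names muscle, but the markers of epithelium were bright on both arrays and those of smooth muscle summed to less than in ovary. EPCAM, an adhesion molecule of epithelial cells, read 10256 on the non-pregnant and 9667 on the late pregnant array, and at most 191 on the ovary arrays. KRT18, a keratin of simple epithelia, read 5960.1 and 5762. The summed signal of 5 epithelial markers was 41145 and 38054, against 589 to 922 in ovary. The muscle intermediate filament DES read 90.6 and 175, little above the floor, and calponin CNN1 read 372 and 482. The other smooth muscle markers on the array were ACTG2 (437 and 3766), SMTN (1041 and 655) and ACTA2 (7613 and 14389). The summed signal of these 5 markers was 9554 and 19467, higher on the late pregnant array, and most of it came from ACTA2. Both sums lay below the 22694 to 31796 of the ovary arrays. The 5 stromal markers on the array summed to 45221 and 43558 and the 3 endothelial markers to 2294 and 4074. The label thus does not describe all of the RNA on these arrays, and the sample is called uterine tissue here. Of the ovarian markers INSL3, RLN2, LHCGR and INHA, all 4 lay under the floor on the late pregnant array and RLN2 and INHA lay just above it on the non-pregnant array (118 and 82.1).

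Genes of the placenta had some of the largest ratios of late over non-pregnant signal. PLET1, a placenta-expressed protein of trophoblast, read 49.1 on the non-pregnant, 32821 on the early pregnant and 31638 on the late pregnant array, at least 387-fold higher in late pregnancy. Its further probe set read 28.5 and 472. PAG6, a pregnancy-associated glycoprotein secreted by trophoblast, read 75.2, 22022 and 28500.2 in the same order, at least 349-fold higher. Another member of that aspartic protease-like family, PPAG3, read 45.9, 8169 and 15847. All 3 genes were thus under the floor without pregnancy and high at both stages of it.

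PLAC1, a membrane-associated protein of trophoblast, had another time course, with 118 on the non-pregnant, 635 on the early and 8035 on the late pregnant array. That is 68.4-fold higher in late pregnancy, and its further probe set gave a log2 ratio of at least 6.01. PEG10, an imprinted gene derived from a retrotransposon and needed for placental growth, read 351, 435 and 8302. Both were thus brighter on the late than on the early pregnant array. The transcription factors HAND1 and GATA3, which act in trophoblast, read 50.4 and 59.2 on the non-pregnant array and 874 and 2778 on the late pregnant one. TEAD4, a trophoblast factor, was 2.43-fold higher, and TFAP2C read 51.7 and 143. GATA2 read 887 and 1243, and GCM1 stayed near the floor on both arrays (88.7 and 78.2). CYP19A1, an aromatase, read 596 on the early pregnant array but under the floor on the other two, as did interferon gamma, IFNG, at 1719.6. Of the 20 genes of the placenta and trophoblast list on the array, 16 were measured, that is, exceeded the floor on 1 or both arrays, 8 of them 2-fold or more higher (against 11.3% of all named genes) and 0 lower (against 13.2%). A gene that passes the floor only on the brighter array had to differ, so this count and those of the lists below describe the lists and support nothing about them.

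The Y-linked gene EIF1AY, singled out after its values were seen, read 28.6 on the non-pregnant array of this tissue, 709.5 on the early and 880.3 on the late pregnant array. On the 3 ovary arrays, taken from sows as well, it read at most 25.7. The other Y-linked probe sets with a gene name were SRY, under the floor on all arrays, and CD99, a gene of the region shared by X and Y, which read 921 and 1685. The 5 trophoblast markers on the array, namely PLAC1, PLET1, GATA2, GATA3 and TFAP2C, summed to 1164 on the non-pregnant and 43836 on the late pregnant array, and to between 236 and 2086 in ovary. All 5 exceeded the floor on both pregnant arrays and 2, PLAC1 and GATA2, did so without pregnancy, where GATA2 gave 887 of the sum. The part of such RNA in the other differences between the 2 arrays was not tested.

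**Figure D2:**
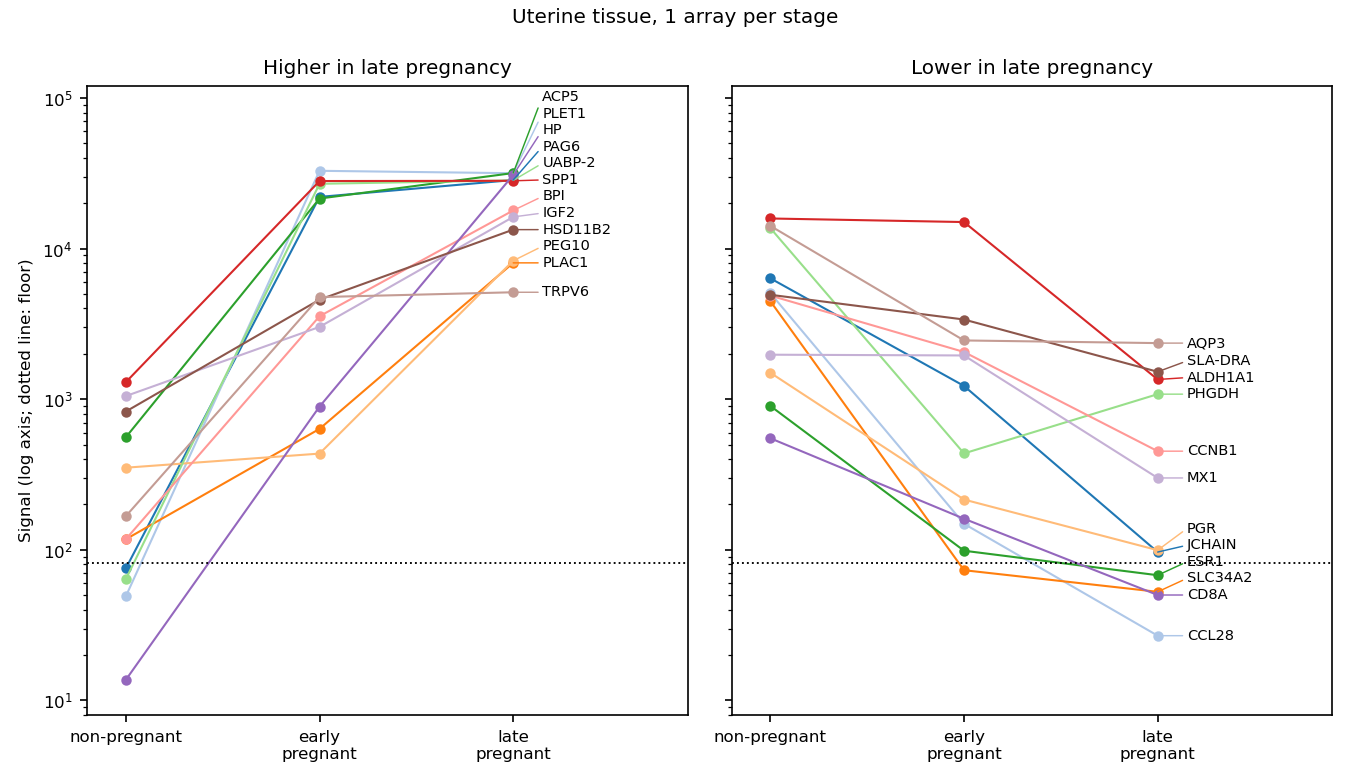
Signal of 24 named genes on the non-pregnant, early pregnant and late pregnant arrays of the tissue labelled myometrium (log axis, 1 array per stage, no error bars possible); the dotted line is the floor of 81.7. The left panel holds genes that were higher in late pregnancy, such as PAG6 at 28500.2, and the right panel genes that were lower, such as JCHAIN at 96.6.

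Several secretory products of the uterine glands were far higher in late pregnancy. Uteroferrin, encoded by ACP5, a phosphatase that carries iron to the foetus, read 559, 21477 and 31717 on the non-pregnant, early and late pregnant arrays, 56.8-fold higher in late pregnancy. UABP-2, a uteroferrin-associated protein of the serpin family, read 63.8, 26905 and 28361, at least 347-fold higher. Osteopontin, SPP1, a ligand of integrins at the surface between uterus and placenta, read 1297, 28071 and 28163. All 3 genes read high on both pregnant arrays.

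The retinol carrier RBP4 read 372 on the non-pregnant and 18751 on the late pregnant array, and its further probe set lay under the floor on both. SLPI, an inhibitor of serine proteases, was already at 10750.3 without pregnancy and read 32821 late in it. WFDC2, of the same whey acidic protein family, read 3678 and 26920.0. The cystatin CST6, an inhibitor of cysteine proteases, read 579.9 and 16597, 28.6-fold higher. UPTI, the uterine plasmin and trypsin inhibitor, read 91.2 on the non-pregnant, 22272 on the early and 5246 on the late pregnant array, although a further probe set lay near the floor on both arrays compared (62.4 and 87.7). LIF, a cytokine of the uterine epithelium, read 10.1 and 431, and IL6 read 151 and 564. Lactoferrin, LTF, stayed under the floor, as did the growth factor FGF7. FOXA2, a transcription factor of uterine glands, went the other way, from 694 to 155 (4.47-fold lower), while its further probe set lay under the floor. Of 27 gland genes on the array, 23 were measured, 14 were 2-fold or more higher and 3 lower. Their median log2 ratio was 1.32, against -0.16 over all genes.

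Protease genes stood in both directions, and most of those past 2-fold were higher in late pregnancy. Cathepsin Z, CTSZ, was 23.3-fold higher (862 and 20111), cathepsin D, CTSD, 7.88-fold, CTSH 3.59-fold and CTSB, already at 8387, 3.16-fold. MEP1B, a subunit of the metalloprotease meprin, read 5.60 and 12129.7, and its further probe set gave a log2 ratio of at least 6.12. Heparanase, HPSE, which cuts heparan sulphate in the matrix, read 63.0, 5958 and 10933 in stage order, at least 134-fold higher. TIMP1 and TIMP3, inhibitors of matrix metalloproteases, were 2.82-fold and 3.86-fold higher. TIMP2 was 5.37-fold higher by its brightest probe set and had a log2 ratio of 0.25 by the next. The matrix metalloproteases MMP2 and MMP7 were lower (2.18-fold and 2.53-fold), and MMP9 lay under the floor on both arrays. The membrane proteases ADAM10 and ADAM17 read 298 and 240.3 without pregnancy and 151 and 156 late in it, lower by less than 2-fold. Cathepsins CTSS and CTSK, at 6487 and 2361 against 4241 and 1879, were also below 2-fold, although a further probe set of CTSS gave -1.48 on the log2 scale. Of 27 measured genes of 30 on the array, 14 were 2-fold or more higher and 2 lower. Those are 51.9% and 7.41%, against 11.3% and 13.2% of all named genes.

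Several genes of antibody secretion were lower in late pregnancy. JCHAIN, the joining chain that links the subunits of secreted IgA and IgM, read 6347 on the non-pregnant, 1224 on the early and 96.6 on the late pregnant array. At 65.7-fold it was the largest reduction among genes above the floor on both arrays. CCL28, the chemokine that draws antibody-secreting cells to mucosa, read 5059.9, 149 and 26.9, at least 61.9-fold lower. TNFRSF17, the plasma cell receptor for survival factors, was at least 2.66-fold lower (218 and 12.4), and CD38, an enzyme on the surface of plasma cells, at least 3.19-fold. PIGR, the epithelial receptor that carries these antibodies into the lumen, read 291 and 178, less than 2-fold apart. The B cell receptor gene CD79B lay under the floor on both arrays. Of 12 genes of the antibody list on the array, 10 were measured, 4 were 2-fold or more lower and 0 higher.

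Most antimicrobial genes past 2-fold were higher in late pregnancy. BPI, which binds and neutralises endotoxin and kills Gram-negative bacteria, read 118 on the non-pregnant, 3553 on the early and 17907 on the late pregnant array, 152-fold higher, with a log2 ratio of at least 7.32 by its further probe set. AOAH, an enzyme that removes fatty acids from endotoxin, read 96.8, 180.5 and 3766. The endotoxin carrier LBP read 41.2 and 632, with a further probe set under the floor, and the endotoxin receptor components CD14 and TLR4 read 47.0 and 454 on the non-pregnant and 212 and 1259.6 on the late pregnant array. These 5 genes, grouped after their values were seen, read higher on the late pregnant array, whereas TLR2, a receptor of other bacterial products, read 267 and 216. CHI3L1, a chitinase-like secreted protein, read 58.7 and 1268. The neutrophil proteins S100A9 and S100A12 read 116 and 29.3 without pregnancy and 515 and 377 late in it, while S100A8 and MMP9 lay under the floor on both arrays. DMBT1, a mucosal scavenger protein, was 11.4-fold lower (1665 and 146). In the antimicrobial list 8 of 15 measured genes were 2-fold or more higher and 1 was lower, of 22 on the array.

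T cell and natural killer cell genes were lower on the late pregnant array. CD3E, a chain of the T cell receptor complex, read 581, 127 and 107 on the non-pregnant, early and late pregnant arrays, 5.43-fold lower in late pregnancy. CD3D read 498, 111 and 16.5, and CD8A, the co-receptor of cytotoxic T cells, 550.3, 161 and 50.1. All 3 genes were highest without pregnancy and close to or under the floor in late pregnancy. KLRK1, an activating receptor of killer cells, was at least 9.03-fold lower, and the T cell chemokine CCL5 7.90-fold lower. The signalling kinase LCK was at least 3.31-fold lower. Of 21 genes on the array, 14 were measured, 10 were 2-fold or more lower and 1 was higher, with a median of -2.02, or -0.76 when genes under the floor on both arrays were kept. The exception was GATA3, a factor of both T cells and trophoblast. CXCL12, a chemokine that holds lymphocytes in tissue, was 7.01-fold lower (737 and 105), and the killer cell cytokine IL15 3.43-fold lower.

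Macrophage genes showed no shared direction. CD163, a scavenger receptor for haemoglobin on macrophages, read 943 and 1193, and MRC1, the mannose receptor, 516 and 1095. FCGR3A, an antibody receptor, was 2.77-fold lower (2548 and 919). AIF1 was 4.41-fold higher (1136 and 5016). Of 20 measured genes of 26 on the array, 5 were 2-fold or more higher and 3 lower.

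Genes induced by interferon were lower in late pregnancy almost throughout the list. MX1, an antiviral GTPase, read 1974 on the non-pregnant, 1951 on the early and 299.9 on the late pregnant array, 6.58-fold lower in late pregnancy. OAS1, an activator of RNA decay, was 8.77-fold lower (4619.7 and 527), and IFIT2 7.43-fold. The ubiquitin-like ISG15 read 604, 1988 and 255, so its early pregnant value was the highest. All 22 genes of the list on the array were measured; 16 were 2-fold or more lower, 0 were higher, and the median was -1.55. MX2 alone lay above 0, at 0.43. The transcription factors IRF1 and IRF9, which carry the signal, were 2.27-fold and 2.85-fold lower. On the ovary arrays MX1 read 9325 in non-pregnant and 453 in late pregnant sows, and OAS1 read 2059 and 457, also lower in late pregnancy, and the labels do not say whether both tissues came from the same pigs.

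Antigen presentation was lower alongside. The class I heavy chain gene SLA-3 read 10259, 4068 and 2169 on the non-pregnant, early and late pregnant arrays, 4.73-fold lower in late pregnancy. SLA-DRA, a class II chain, read 4933, 3379.6 and 1520.3. Both read highest without pregnancy and lowest in late pregnancy. B2M, the light chain of class I molecules, read 31724 and 28615. The immunoproteasome subunits PSMB8 and PSMB10 were 4.93-fold and 3.86-fold lower, the proteasome activator PSME1 4.61-fold and the peptide transporter TAP1 3.69-fold. Constitutive proteasome subunits differed less: 2 of 29 were 2-fold or more lower (PSMA5 and PSMB4) and 0 higher, with a median of -0.34. In the antigen presentation list 14 of 22 genes were 2-fold or more lower and 1 was higher, SLA-DMA, a class II peptide loader (1896 and 4072), whose further probe set went the opposite way (-1.95 on the log2 scale). The median was -1.43, or -0.92 with the probe sets of a gene averaged. The class I genes of the pig are close in sequence, so a signal may be shared between them.

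**Figure D3:**
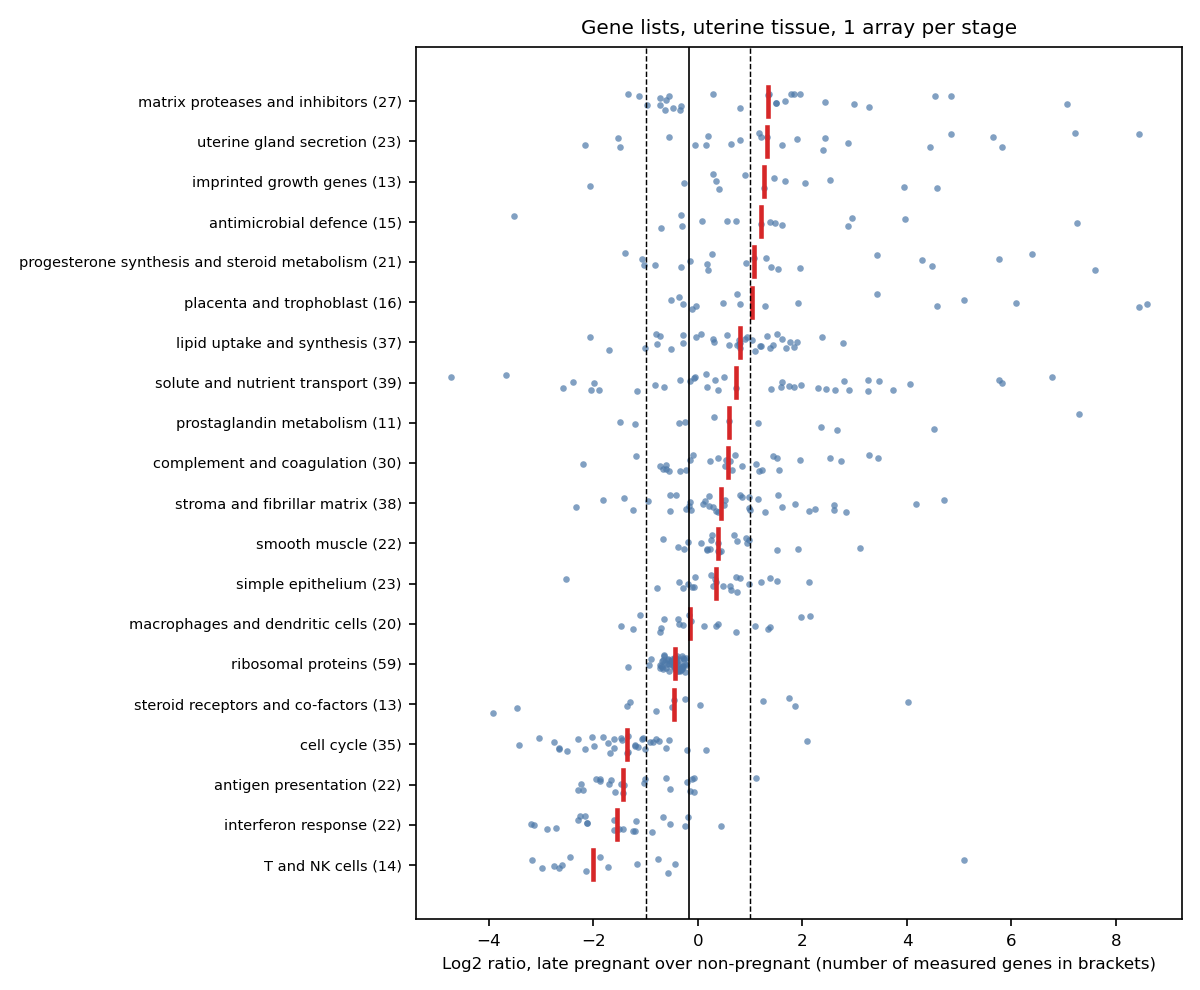
Log2 ratio of late pregnant over non-pregnant signal for each measured gene (points) of 20 gene lists, with the list median (bar), the median over all named genes (solid line, -0.16) and 2-fold lines (dashed). Medians run from -2.02 for T and NK cells to 1.34 for matrix proteases and inhibitors, and lists such as the ribosomal proteins spread little whereas placenta and gland lists reach beyond 8 on the log2 scale.

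The receptors for both ovarian steroids were low in late pregnancy. PGR, the progesterone receptor, read 1498 on the non-pregnant, 216 on the early and 99.4 on the late pregnant array, 15.1-fold lower. ESR1, the oestrogen receptor of the uterus, read 902, 98.6 and 67.8, at least 11.0-fold lower. Both were lower on both pregnant arrays than without pregnancy. FKBP4 and FKBP5, co-chaperones of steroid receptors, were 2.46-fold and 2.57-fold lower. IGF1, a growth factor of uterine stroma that oestrogen induces, read 804, 230.0 and 139, 5.78-fold lower, and MSX1, a homeobox factor of uterine epithelium, read 1708 and 820.0. The glucocorticoid receptor NR3C1 went the other way, from 90.0 to 324. HSD11B2, which inactivates cortisol, read 828, 4577 and 13354 in stage order, 16.1-fold higher, and HSD11B1, which restores it, was 3.33-fold higher. SGK1, a kinase that glucocorticoids and progesterone induce, was 4.65-fold higher. Of 13 measured receptor and co-factor genes 4 were 2-fold or more higher and 4 lower.

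Most steroid enzyme genes past 2-fold were higher on the late pregnant array. STAR, which moves cholesterol into mitochondria, read 13.2 on the non-pregnant, 5573 on the early and 6907 on the late pregnant array, and at least 4.20 higher on the log2 scale by its further probe set. CYP11A1, which turns cholesterol into pregnenolone, read 22.1, 1502 and 4452, and HSD3B1, which makes progesterone from it, 64.1, 3101 and 1822. The 3 genes of the route to progesterone thus lay under the floor without pregnancy and far above it in late pregnancy. The electron carriers of CYP11A1, FDX1 and FDXR, were 2.10-fold and 2.65-fold higher, the latter with a log2 ratio of -0.02 by its further probe set. SULT2A1, a sulphotransferase of steroids, read 111, 26616 and 21610.1, 194-fold higher and the largest ratio among genes above the floor on both arrays. SULT1E1, which sulphates oestrogen, read 57.4, 3192 and 881, and HSD17B2, which inactivates oestradiol, 69.9, 9701 and 1591. Both of these were higher on the early than on the late pregnant array. TSPO, a cholesterol-binding protein of mitochondria, was 2.04-fold lower. CYP3A39, a cytochrome P450 of drug and steroid metabolism, read 61.6, 11990.1 and 13093, with a further probe set under the floor. Of 26 steroid enzyme genes on the array 21 were measured, 11 were 2-fold or more higher and 3 lower. Those are 52.4% and 14.3%, against 11.3% and 13.2% of all named genes.

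**Figure D4:**
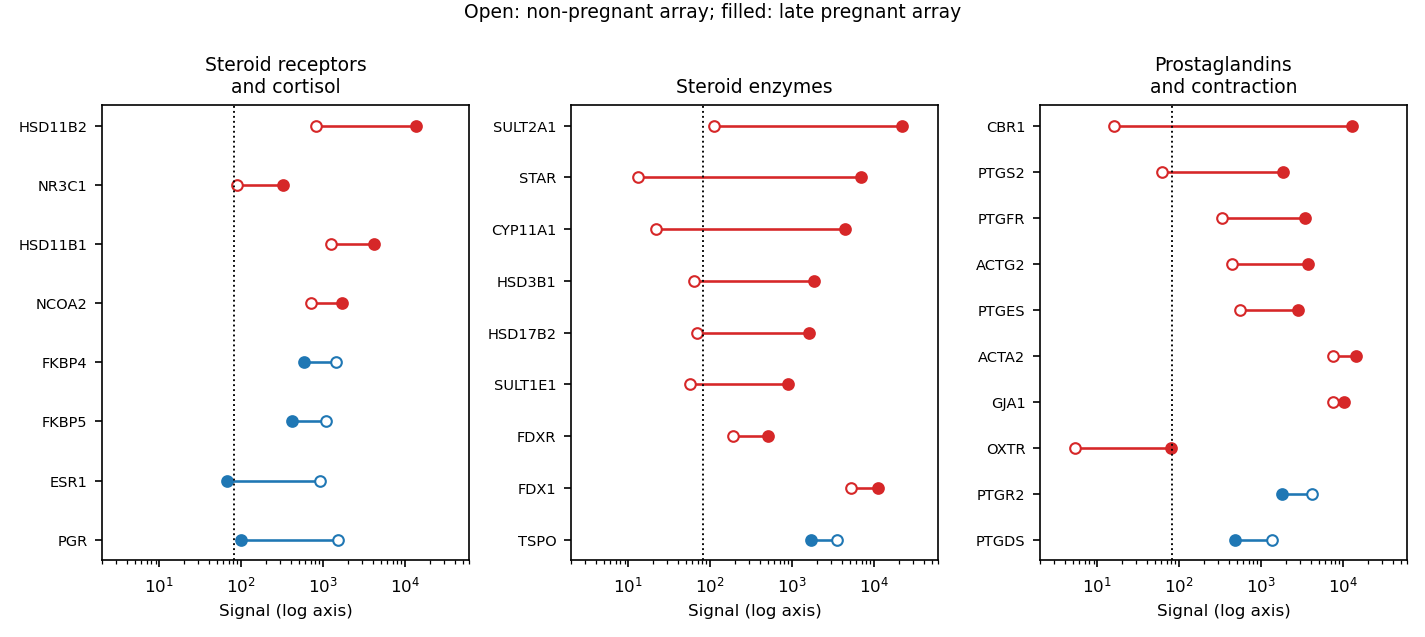
Signals on the non-pregnant (open circles) and late pregnant (filled circles) arrays for steroid receptors, steroid enzymes, and prostaglandin and contraction genes (log axis, 1 array each, the floor of 81.7 dotted). PGR and ESR1 lie to the left in late pregnancy, at 99.4 and 67.8, and STAR, CYP11A1, PTGS2 and PTGFR lie to the right.

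Prostaglandin genes stood in both directions. PTGS2, the inducible cyclooxygenase, read 61.3, 1197 and 1862 on the non-pregnant, early and late pregnant arrays, at least 22.8-fold higher in late pregnancy. PTGES, which makes prostaglandin E, read 545, 2583 and 2770.1. CBR1, a carbonyl reductase that can turn prostaglandin E into F, read 16.1, 4954 and 12781, at least 156-fold higher. These 3 enzymes were higher on both pregnant arrays than without pregnancy, whereas PTGES3, another synthase of prostaglandin E, read 1486 and 1249 and CBR3 lay under the floor. PTGFR, the receptor of prostaglandin F, read 336, 1319.9 and 3436, 10.2-fold higher, although its further probe set stayed close to the floor (5.90 and 97.0). PTGDS, which makes prostaglandin D, and PTGR2, which breaks prostaglandins down, were 2.81-fold and 2.29-fold lower, while PTGR1, of the same function, was 2.22-fold higher (885 and 1968). Of 11 measured prostaglandin genes 5 were 2-fold or more higher and 2 lower. Their median was 0.59, or -0.25 over those above the floor on both arrays.

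Genes of contraction stood in both directions, at shares close to those of all named genes. In the contraction list 2 of 17 measured genes were 2-fold or more higher (11.8%, against 11.3%) and 2 lower (11.8%, against 13.2%). The oxytocin receptor OXTR lay under the floor on all 3 arrays (5.40, 6.80 and 79.2), and the OXT probe set, for oxytocin itself, read 495, 141 and 5.60, at least 6.06-fold lower in late pregnancy. RGS2, a brake on G protein signalling, was 2.34-fold lower (3313 and 1416), with a further probe set under the floor. PLN, which restrains the calcium pump of muscle, was 2.23-fold higher (276 and 616), but had a log2 ratio of -0.12 by its further probe set. GJA1, the connexin that couples uterine muscle cells, read 7585 and 10359. ACTG2, the enteric smooth muscle actin, read 437, 2984 and 3766, 8.62-fold higher, or 0.67 on the log2 scale by its further probe set. The muscle light chain MYL9 was 3.78-fold higher and PDLIM3 2.84-fold. ACTA2, smooth muscle actin, read 7613 and 14389, and SMTN, smoothelin of contractile muscle, 1041 and 655. In the smooth muscle list 3 of 22 genes were 2-fold or more higher (11.3% of all named genes) and 0 lower, with a median of 0.38. CRYAB, a small heat shock protein of muscle and epithelium, was 8.10-fold higher (543 and 4403), with a further probe set under the floor.

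Transport genes stood in both directions, also within families. Several facilitative glucose carriers were higher in late pregnancy: SLC2A1 read 612, 7302 and 3759, SLC2A3 763, 4127 and 5279, and the fructose carrier SLC2A5 83.5, 594 and 4511 in stage order. SLC2A12 was 16.6-fold higher. The sodium-driven glucose carrier SLC5A1 went the other way, from 1039.7 to 63.5. Of the other facilitative carriers, SLC2A8 was below 2-fold in the lower direction (521 and 332) and SLC2A4 lay under the floor on both arrays. The glutamate carriers SLC1A1 and SLC1A3 read 79.5 and 56.7 without pregnancy and 899 and 1086 late in it, and the neutral amino acid carrier SLC1A5 was 4.88-fold higher. The peptide carriers SLC15A1 and SLC15A2 were at least 9.53-fold and 7.42-fold higher, and SLC7A4, of the cationic amino acid carrier family, read 56.6, 2203 and 11950.0. In the wider SLC7 family of amino acid carriers, SLC7A1 went the other way and was 2.25-fold lower (1949 and 868), SLC7A9 was at least 4.15-fold lower (339 and 25.8), and SLC7A7 read 311 and 176. The vitamin carrier SLC5A6, which takes up biotin and pantothenate, was 9.51-fold higher. The folate receptor FOLR1 read 5368 and 8998 on the early and late pregnant arrays by its brightest probe set, under the floor without pregnancy, while a further probe set read 1810.5 and 1657, so its probe sets disagreed. Those of SLC3A1, a subunit of cystine transport, disagreed as well (2.44 and -1.24 on the log2 scale). The water channel AQP8 read 31.5, 8817 and 4616, whereas AQP3 read 14148, 2454 and 2356. SLC28A3, a nucleoside carrier, was 26.4-fold lower (5758 and 218), the next largest reduction after JCHAIN among genes above the floor on both arrays. Of 47 transport genes on the array, 39 were measured, 19 were 2-fold or more higher and 8 lower.

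**Figure D5:**
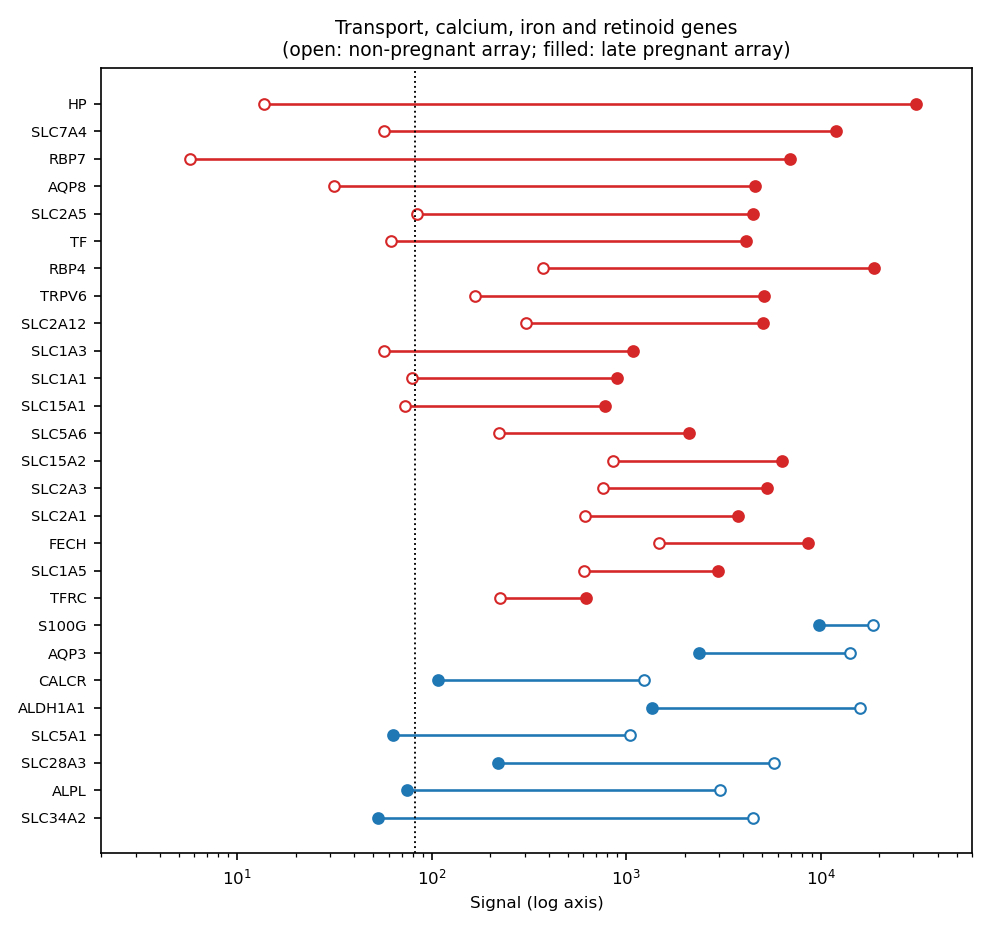
Signals of transport, calcium, iron and retinoid genes on the non-pregnant (open circles) and late pregnant (filled circles) arrays of the tissue labelled myometrium (log axis, 1 array each, the floor of 81.7 dotted), ordered by ratio. At the top HP, SLC7A4 and RBP7 read 30784, 11950.0 and 6937 in late pregnancy, and at the bottom SLC34A2 reads 4479 without pregnancy and 52.6 in late pregnancy.

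Calcium and phosphate genes stood in both directions. TRPV6, the calcium entry channel of epithelia, read 167, 4761 and 5126 on the non-pregnant, early and late pregnant arrays, 30.7-fold higher in late pregnancy. S100G, calbindin of epithelial calcium transport, read 18568, 1345 and 9804, so it was lowest in early pregnancy and less than 2-fold apart between the arrays compared. The phosphate carrier SLC34A2 read 4479, 73.2 and 52.6, at least 54.8-fold lower. ALPL, alkaline phosphatase, was at least 37.0-fold lower (3019.9 and 74.2), and the calcitonin receptor CALCR 11.5-fold (1236 and 108). Of 16 measured genes 4 were 2-fold or more higher and 5 lower. Their median was 0.23.

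Genes of iron and haem stood in both directions, with 7 of 16 measured 2-fold or more higher and 2 lower. Haptoglobin, HP, which binds free haemoglobin, read 13.7, 893 and 30784 in stage order, at least 377-fold higher, and 672 and 14136 in the non-pregnant and late pregnant ovary. Transferrin, TF, read 62.0, 574 and 4121, although its further probe set stayed close to the floor (21.5 and 86.6). Both were thus higher on the late than on the early pregnant array. FECH and ALAS1, enzymes of haem synthesis, were 5.84-fold and 4.48-fold higher, and the transferrin receptor TFRC 2.79-fold. SLC11A2, which carries iron across membranes, was 3.22-fold lower (413 and 128). Of the red cell genes, AHSP, which guards free alpha globin, read 81.7, at the floor, and 638, and ALAS2, the haem enzyme of red cells, 614 and 1758, whereas the globin HBB read 1440.1 and 574. The embryonic globin HBE1 lay under the floor on both arrays compared. Of other plasma proteins of the liver, ALB, TTR, AFP, APOB and HPX lay under the floor on both arrays, and APOA1 was 4.65-fold lower (2783 and 598). SERPINA1 was at least 2.64-fold (10.6 and 215) and APOE 2.84-fold higher. In the plasma protein list, which also holds HP, TF and RBP4, 5 of 10 measured genes were 2-fold or more higher and 1 was lower.

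The retinoid genes did not move as a set. RBP7, a retinol binder inside cells, read 5.70, 494 and 6937 on the non-pregnant, early and late pregnant arrays. ALDH1A1, which makes retinoic acid, read 15835, 14994 and 1351, 11.7-fold lower in late pregnancy and nearly level between the other two arrays. Its further probe set gave -4.61. In the retinoid list 2 of 11 measured genes were 2-fold or more higher, RBP4 and RBP7, and 3 were lower, ALDH1A1, DHRS4 and CRABP2.

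Genes of cell division were lower in late pregnancy. CCNB1, the cyclin of mitosis, read 4873, 2058 and 452 on the non-pregnant, early and late pregnant arrays, 10.8-fold lower. TOP2A, the topoisomerase of dividing cells, read 4122, 1854 and 501. STMN1, a regulator of microtubules in mitosis, read 12903, 6467 and 2894. In all 3 the early pregnant value lay between the others. The replication genes MCM5 and MCM2 were 4.06-fold and 3.28-fold lower, and thymidylate synthase TYMS at least 6.73-fold. CDKN1A, an inhibitor of the cell cycle, was the exception at 4.24-fold higher (204 and 862). Of 35 genes, all of those on the array, 26 were 2-fold or more lower and 1 was higher, with a median of -1.36. The transcription factor MYC, a driver of proliferation, was 3.55-fold lower.

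Most imprinted genes past 2-fold were higher. IGF2, the imprinted growth factor of the placenta, read 1049, 3019 and 16215 on the non-pregnant, early and late pregnant arrays, 15.5-fold higher in late pregnancy, with a log2 ratio of 4.39 by its further probe set. IGFBP2, which binds it, read 606, 1303 and 10938. Both stood far higher on the late than on the early pregnant array. PHLDA2, an imprinted gene that limits placental growth, was 3.16-fold higher and PEG3, an imprinted zinc finger gene, read 55.0 and 338. PLAGL1, an imprinted transcription factor, was 5.78-fold higher by its brightest probe set and had a log2 ratio of -0.09 by the next. Of 13 measured imprinted genes, 7 were 2-fold or more higher and 1 lower. SFRP1, an inhibitor of Wnt signalling, was 6.48-fold higher (238 and 1540.5), and FST, the activin binder follistatin, 4.66-fold lower.

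Among metabolic genes, those of serine synthesis read lower in late pregnancy, PSPH by less than 2-fold. PHGDH, the first enzyme of serine synthesis, read 13680.1, 436 and 1079.7 in stage order, 12.7-fold lower in late pregnancy. PSAT1, the next enzyme, read 14958, 2464 and 2464, and PSPH, the last, 7561, 14289 and 4257. The first and the next enzyme were low on both pregnant arrays, and the last was highest in early pregnancy. ARG2, an arginase, was at least 18.0-fold lower (1472 and 76.6). ASS1, which makes arginine from citrulline, read 95.2, 2647 and 3290.5, 34.6-fold higher, so ARG2 and ASS1 stood in opposite directions. GOT1, an aspartate transaminase, was 8.02-fold higher, and glutamine synthetase, GLUL, 3.24-fold. The glutathione transferases GSTM3 and GSTA4 were 8.81-fold and 4.92-fold lower, whereas glutathione peroxidase GPX2 read 116 and 1397 and the extracellular superoxide dismutase SOD3 6.50 and 1308. SORD, which makes fructose from sorbitol, was 11.2-fold lower (4320.5, 3112 and 387).

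Among lipid genes, those 2-fold or more higher outnumbered those lower. PPARG, a receptor that switches on lipid uptake, read 53.8, 869 and 559, at least 6.84-fold higher in late pregnancy. MGLL, which frees glycerol from monoglycerides, was 5.16-fold higher, the fatty acid elongase ELOVL6 3.38-fold, the desaturase SCD 2.70-fold and the carrier APOE 2.84-fold. The fatty acid activating enzymes ACSL5 and ACSL3 were 4.21-fold and 3.24-fold lower. Of 52 lipid genes on the array 37 were measured, 15 were 2-fold or more higher and 3 lower. Those are 40.5% and 8.11%, against 11.3% and 13.2% of all named genes. The adipocyte hormones ADIPOQ and LEP lay under the floor on both arrays, while the fat cell genes FABP4 and LPL, which also act in macrophages and vessels, were at least 3.72-fold and 3.57-fold higher.

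Matrix genes stood in both directions, and the vessel genes past 2-fold were higher. THY1, a surface glycoprotein of stroma, read 1183, 15460.0 and 21302 in stage order, 18.0-fold higher in late pregnancy, and its further probe set gave 4.77 on the log2 scale. Periostin, POSTN, a matrix protein, read 208, 2737 and 5422, with a further probe set under the floor. The matrix Gla protein MGP was 7.17-fold and fibronectin, FN1, 2.89-fold higher. The collagens COL15A1 and COL6A3 were 3.54-fold and 2.68-fold lower, ASPN 5.01-fold lower, while COL1A2 read 2944 and 2499. Of 38 matrix genes, 13 were 2-fold or more higher and 4 lower. The endothelial markers CDH5, PECAM1 and VWF read 758, 1111 and 425 without pregnancy and 1108, 2199.9 and 766 in late pregnancy, each below 2-fold. PDPN and LYVE1, found on lymphatic vessels, were 17.8-fold and 5.98-fold higher, and the vessel growth factor VEGFA 3.92-fold. Tissue factor, F3, which starts clotting, was 10.8-fold higher (472 and 5120.3), and its counterpart thrombomodulin, THBD, 3.86-fold. The stress-induced factor ATF3 was 12.3-fold higher, and FOS and EGR1 2.21-fold and 2.18-fold. In the immediate early list 7 of 16 measured genes were 2-fold or more higher and 1 lower. In the endothelial list 8 of 27 were higher and 0 lower by that margin. In the list of complement and coagulation 11 of 30 were higher and 2 lower. Complement components stood in both directions. C3 (1217 and 538) and C4A (1893 and 411) were lower, whereas CFB was 6.70-fold (324 and 2175) and C5 at least 2.92-fold higher (2.1 and 238). The membrane regulators CD46 and CD55, which shield cells from complement, were 2.16-fold and 2.33-fold higher, and CLU was 2.25-fold higher.

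Genes of basic cell function differed little. Each of 59 measured ribosomal protein genes lay below 0, with a median of -0.44, and 1 (RPL26, dim on both arrays) passed 2-fold. That direction held with quantile normalization (median -0.25) and with centring on the median (-0.33). The median over all named genes was itself below 0, at -0.16 as reported, -0.13 with quantile normalization and -0.06 with centring. Of 52 respiratory chain genes 2 were 2-fold or more lower, ATP5I and NDUFC2, and 0 higher. Of 41 genes of the secretory pathway, 1 was higher, the chaperone CALR, and 1 lower, SSR4. GAPDH read 23724 and 22903 and ACTB 21930.1 and 19360.4.

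Other genes among the largest ratios were PLBD1, a phospholipase B-like protein (102, 18329.6 and 13788 in stage order, 136-fold higher), and RNASE1, a secreted ribonuclease (28.8-fold higher). ETNPPL, which breaks down phosphoethanolamine, read 7.20, 66.6 and 8056, so it was bright on the late pregnant array alone of the 3. ASB11, of a family of ubiquitin ligase adaptors, read 3.60, 4592 and 11634. The malic enzyme ME1 was 28.6-fold and the lipid transfer protein PLTP 18.3-fold higher. A probe set annotated to FNTA was 50.3-fold higher (426 and 21459), but the other went the opposite way (-0.73 on the log2 scale), so the gene behind it is uncertain. On the lower side stood VNN2, an enzyme of pantothenate recycling (13.3-fold), the metallothionein MT3 (12.8-fold), the claudin CLDN11 (12.2-fold) and the transporter scaffold PDZK1 (at least 22.7-fold, with a further probe set under the floor).

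In the remaining lists, counts of genes 2-fold or more higher and lower were 3 and 6 of 30 for glycolysis and hypoxia, and 7 and 11 of 59 for amino acid, one-carbon and glutathione metabolism. They were 4 and 8 of 38 for cytokines and their receptors, 4 and 4 of 21 for Wnt and patterning genes, and 5 and 2 of 27 for growth factor signalling. The list of oestrogen and progesterone response had 3 and 3 of 15, that of contraction 2 and 2 of 17, and that of simple epithelium 4 and 1 of 23. SPINT1, an epithelial protease inhibitor, was 4.39-fold higher, the tight junction claudin CLDN4 2.84-fold higher and CLDN10 5.79-fold lower. The list of red cells had 3 and 1 of 5, that of liver and foetal plasma proteins 5 and 1 of 10 and that of neutrophils and mast cells 2 and 1 of 4. Nerve and glia had 1 and 1 of 5 and adipocytes 4 and 0 of 7. Heat shock genes had 2 and 0 of 21, housekeeping genes 2 and 0 of 17, the latter being TFRC and ALAS1. For the genes APOE, CALCR, EGR1, FCGR3A, FST, LCK, MCM2, PEG3, PLTP, SLC1A1, TLR4 and VEGFA a further probe set had the same direction at less than 2-fold, and for ATP5I, CD14, GSTA4, MSX1, TAP1 and TYMS it lay under the floor on both arrays.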

How the data were processed

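RNA of each of 6 tissue samples, 6 ug per the labels' protocols, was labelled with biotin and hybridised to 1 Affymetrix pig array. The deposited values are linear intensity values summarised with MAS5, per the submitters' processing notes, and the mean after trimming 2% at each end is 500.1 on all arrays, so they had been scaled to one level. The version, the scaling target and the detection calls are not stated in the sources at hand.

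Of 24123 probe sets 124 controls were left out. The platform annotation gave 10069 probe sets 1 gene symbol, 198 several and 13732 none, and none changed when looked up by gene identifier. Symbols of uncharacterised loci were dropped, which left 6567 genes, each represented by its brightest probe set. Signals were raised to the floor and the log2 ratio of late pregnant over non-pregnant was taken. A gene above the floor on at least 1 array was measured, and 2-fold or more was called. Brightness on an array cannot be turned into counts, and 1 array a stage gives no spread between samples, so no test was made. The ratio code was tested on simulated data.

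A gene could be named if it was in 1 of 43 gene lists or a marker, among the 25 highest or lowest ratios above the floor on both arrays, or among the 15 largest bounds in each direction. The members and lists were chosen with earlier results of these data known, and symbols were matched to the lists exactly. Lists of lysosome, motile cilia and nucleotide synthesis genes were added after the values were seen. The alternatives were other floors, a pseudocount of 16 with no floor, no filter, a filter on both arrays, quantile normalization, centring on the median, 4-fold, and averaging the probe sets of each gene. The analysis used Python 3.11.15, pandas 2.3.3 and numpy 2.4.6.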

Additional observations from a re-analysis of the deposited data

Results flagged for a closer look

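For 19 of 288 genes named here, late pregnant and non-pregnant arrays differed 2-fold or more in uterine tissue and in ovary, in opposite directions. Many of the 288 were named for their large ratios in uterine tissue. The share over all genes was not worked out, so the count describes the named genes only. Each tissue has 1 array a stage, so the difference between the tissues was not tested. Log2 ratios of late pregnant over non-pregnant are given below for uterine tissue first and for ovary next. Of genes higher in uterine tissue and lower in ovary, ACP5, uteroferrin, had 5.83 and -1.72, HPSE 7.06 and -1.33, BPI 7.25 and -1.16, and PEG10 4.56 and -1.40. Osteopontin, SPP1, had 4.44 and -1.92, FABP4, a fatty acid carrier, 1.90 and -1.94, and the imprinted PHLDA2 1.66 and -1.30. The red cell enzyme ALAS2 had 1.52 and -1.38, APOE 1.51 and -1.11, and TIMP1 1.49 and -1.85. The other genes were lower in uterine tissue and higher in ovary. ALPL had -5.21 and 2.12, ALDH1A1 -3.55 and 2.87, SORD -3.48 and 2.10, and the oestrogen receptor ESR1 -3.46 and 1.32. The T cell chemokine CCL5 had -2.98 and 1.46, CAPSL -2.41 and 1.86, ASAH1 -2.44 and 1.01, ACSL3 -1.70 and 1.02, and DHRS4, a reductase of retinoids, -1.40 and 1.20. Ratios of HPSE, FABP4, ALPL and ESR1 in uterine tissue, and of HPSE and CCL5 in ovary, are bounds.

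The early pregnant array of uterine tissue, outside the comparison, was bright for 5 list genes that read far lower on both arrays compared. The search covered the 1068 genes of the gene lists on the array, not all genes. It asked for a fixed fold margin over the floor and over both other signals. The embryonic globin HBE1 read 20201 there, against 44.3 on the non-pregnant and 64.1 on the late pregnant array. The chemokine CXCL14 read 18246, against 848 and 1634. The Wnt inhibitor DKK1 read 4119.8, against 127 and 364, interferon gamma, IFNG, 1719.6, against 74.0 and 64.8, and the apolipoprotein APOA2 956.5, against 38.3 and 14.2.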

How the results depend on the processing

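Each result rests on 1 array a stage, so the error of the ratios is unknown. As a yardstick for changes of setting, the spread between probe sets of a gene was used (0.37 on the log2 scale, from median absolute deviations). It compares probe sets on the same 2 arrays, so it holds no variation between animals, samples or hybridisations and does not measure that error. No paired analysis was possible because each stage has 1 array of this tissue, and no array could be left out. The count of 1744 probe sets higher and 2020 lower was 548 and 380 at 4-fold, and 1163 were lower with the floor at the 60th percentile. Among 363 list medians under alternative settings 322 stayed within that spread, 41 moved further, and 0 of those reported at 2-fold or more changed sign. Medians that moved are given with the reported value in brackets. With the floor at the 25th percentile, the median was -2.44 (-2.02) for T and NK cells, 0.62 (1.84) for adipocyte, 0.79 (1.20) for antimicrobial defence, 0.51 (1.07) for plasma proteins, 0.59 (1.52) for red cells, 0.43 (1.32) for neutrophils and 1.04 (0.59) for prostaglandin metabolism. With the floor at the 60th percentile, the median was -0.26 (-0.70) for B cells and antibody, -1.02 (-2.02) for T and NK cells, 0.57 (1.84) for adipocyte, 0.79 (1.20) for antimicrobial defence, 4.07 (1.07) for plasma proteins, 0.46 (1.26) for imprinted genes, -0.70 (-1.30) for motile cilia, 0.55 (1.32) for neutrophils, 0.31 (-0.23) for retinoid handling and 0.32 (0.73) for transport. With genes under the floor kept, the median was -0.76 (-2.02) for T and NK cells, 0.00 (1.84) for adipocyte, 0.037 (1.20) for antimicrobial defence, 0.00 (1.07) for plasma proteins, 0.33 (1.52) for red cells, 0.00 (0.38) for growth factor signalling, 0.17 (0.81) for lipid genes, 0.55 (1.34) for matrix proteases, 0.00 (1.32) for neutrophils, 0.62 (1.04) for placenta, 0.23 (1.07) for steroid enzymes and 0.17 (0.73) for transport. With only genes above the floor on both arrays, the median was 0.64 (1.20) for antimicrobial defence, 1.09 (1.52) for red cells, -0.086 (0.33) for iron and haem, 0.81 (1.34) for matrix proteases, 0.22 (1.04) for placenta, 0.59 (1.07) for steroid enzymes and -0.25 (0.59) for prostaglandin metabolism. With the probe sets of each gene averaged, the median was 1.27 (1.84) for adipocyte, -0.92 (-1.43) for antigen presentation, 0.73 (1.20) for antimicrobial defence, 0.73 (1.34) for matrix proteases and 0.65 (1.07) for steroid enzymes. With quantile normalization and with centring, 0 list medians moved further than that spread. Values of 288 single genes were taken under the other floors, the pseudocount, quantile normalization, centring and averaging. Of these 1728 values, 1464 stayed within that spread and 263 moved further. A change of sign was counted only for genes reported at 2-fold or more, and 1 value had it: SLA-DMA was -0.42 with its probe sets averaged. Signals near the floor limit what can be seen, and genes at it have only a bound.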

Other observations

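Genes of the lysosome, the compartment that digests macromolecules, were another group with many higher members, some of which, such as ACP5 and the cathepsins, are also in the lists above. This list was drawn up after the values were seen, so its counts are a description. Of 56 genes on the array 54 were measured, 35 were 2-fold or more higher in late pregnant than in non-pregnant uterine tissue and 2 lower, with a median log2 ratio of 1.47. SMPDL3A, a phosphodiesterase, read 349, 8002 and 11057 on the non-pregnant, early and late pregnant arrays. DNASE2, which digests DNA in lysosomes, read 321, 5272 and 7609, and the galactosidase GLB1 680.5, 9125 and 12131. In these genes the signal was already high on the early pregnant array. Progranulin, GRN, a lysosomal and secreted protein, was 14.4-fold higher, the cholesterol exporter NPC1 12.2-fold, the sialidase NEU1 12.1-fold and the ganglioside activator GM2A 7.53-fold. GM2A and NPC1 were brighter on the late than on the early array (3785 and 1211 on the early array, 16837 and 4033 on the late one). The general marker of the lysosomal membrane LAMP1 was 2.21-fold higher. The exceptions were the ceramidase ASAH1 (1579, 1799 and 292, 5.42-fold lower) and the acid lipase LIPA (2.01-fold lower).

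Genes of motile cilia, the beating cilia of ciliated epithelial cells, and of transport within cilia were lower, in a list that was also drawn up after the values were seen. CAPSL, a gene of ciliated cells, read 529, 157 and 99.8 in stage order, and FAM216B 495, 269 and 99.3. IFT57, a carrier subunit inside cilia, was 5.50-fold lower (3217 and 585). Of 23 genes on the array 21 were measured, 13 were 2-fold or more lower and 0 higher. Enzymes of purine and pyrimidine synthesis, which supply dividing cells, stood in the same direction: 11 of 24 measured enzymes passed 2-fold downwards and 0 upwards, again in a list made after the values were seen. The purine enzymes PAICS and ATIC were 6.37-fold and 6.32-fold lower, and the nucleotide kinase NME1 2.99-fold. TYMS and RRM2 are also in the cell cycle list.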
